A study of Rattus norvegicus with 18 samples.

Results

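The genes described here are the 10 genes of polyamine synthesis and catabolism in the rat: Odc1, Amd1, Srm, Sms, Sat1, Azin1, Oaz1, Oaz2, Smox and Paox. They were chosen by name, and all 10 were present among the 13188 genes of the deposited expression table. Their mRNA was measured by RNA-seq in fibroblasts that lack endogenous myc, with and without human MYC and with and without siRNA against the aryl hydrocarbon receptor (AHR).

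Polyamines (putrescine, spermidine and spermine) are small positively charged molecules that bind nucleic acids and are needed for protein synthesis and cell growth. Ornithine decarboxylase (Odc1) makes putrescine. S-adenosylmethionine decarboxylase (Amd1) supplies the aminopropyl groups that spermidine synthase (Srm) and spermine synthase (Sms) add to it. The antizymes Oaz1 and Oaz2 send the Odc1 protein to the proteasome and reduce polyamine uptake, and the antizyme inhibitor Azin1 counters them. The acetyltransferase Sat1 and the oxidases Smox and Paox break spermine and spermidine down towards putrescine. ODC1 is a textbook target of MYC, bound through E-boxes in the first intron of the gene.

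The cells were HO15.19, a line derived from Rat1 rat fibroblasts that has no functional endogenous myc (myc-/-). In the lines with MYC, human MYC was expressed from the retroviral vector pBabe. There were 18 libraries in 6 groups of 3 cultures, all grown in 10% serum according to the labels: myc-/- cells, myc-/- + MYC cells, myc-/- cells with control siRNA (myc-/- siCtrl), myc-/- + MYC cells with control siRNA (myc-/- + MYC siCtrl), and myc-/- + MYC cells with either of 2 siRNAs against AHR (siAHR-2 and siAHR-5). Each siRNA was used at 40 nM for 48 h. The myc-/- and myc-/- + MYC groups carry no siRNA in their labels. Whether a stable line is 1 clone is not given in the sources used here. The labels do not say whether the cultures of a group were grown separately. The study's methods speak of repeated experiments with technical replicates, without saying which of these the libraries are. The p-values therefore measure the spread between these cultures, which may be technical.

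The values are the log2 expression that was deposited. The libraries stood apart as a 6-library set, made up of the groups myc-/- + MYC and myc-/- siCtrl, and a 12-library set with the rest. The sets had different scales, and the leading principal component, with 74.7% of the variance, separated them. Comparisons were for this reason kept inside each set, apart from a test of whether the MYC differences of the sets differ. For MYC, the 6-library set offers myc-/- + MYC cells and their myc-/- siCtrl controls, while the 12-library set offers myc-/- + MYC siCtrl cells and their myc-/- controls. As labelled, the control siRNA was on the cells without MYC in the 6-library set and on the cells with MYC in the 12-library set. Within either set, MYC and transfection cannot be told apart. The table names the columns of the 6-library set control and Myc, with no siRNA in either name. Were the labels of the myc-/- and myc-/- siCtrl cultures exchanged, transfection would not differ between the arms of either set, and this doubt was not settled here. Rat Myc, the gene disrupted in these cells, was read in the cells without MYC all the same, at 9.16 to 9.47 in myc-/- siCtrl and 10.82 to 10.94 in myc-/- cultures on the log2 scale, against 8.01 to 8.08 and 8.16 to 8.27 with MYC. These are log2 differences (log2FC) of −1.26 and −2.68, and the human transgene was not analysed here. Ahr had a log2FC of −1.29 with siAHR-2 and −1.39 with siAHR-5. With MYC it had a log2FC of 0.52 in the 6-library set, below the fold cutoff, and of 1.40 in the 12-library set, past the cutoffs given below. Its mean was thus 11.99 with siAHR-2 and 11.88 with siAHR-5, against 13.28 with siCtrl and 11.88 in the myc-/- cultures. All 10 fibroblast marker genes looked for were in the table. Of all genes, 26.8% in the 6-library set and 25.5% in the 12-library set passed the cutoffs given below with MYC (12.5% and 10.8% on the higher side). Of the fibroblast markers, 6 passed in each set (1 higher and 5 lower in the 6-library set, all lower in the 12-library set). Their summed level on the log2 scale was 20.80 to 20.82 in myc-/- siCtrl cells against 19.87 to 19.96 in myc-/- + MYC cells, and 21.95 to 22.18 in myc-/- cells against 20.21 to 20.24 in myc-/- + MYC siCtrl cells. It was 19.98 to 20.02 with siAHR-2 and 19.94 to 19.96 with siAHR-5, where Vim was lower (log2FC −0.363 and −0.475). Other fibroblast markers were higher with siAHR-5, Thy1 past the cutoffs (log2FC 0.754) and Pdgfrb (0.553) and Col1a1 (0.217) below the fold cutoff. Fn1 was lower with siAHR-5 (log2FC −0.101) and Col1a1 was lower with siAHR-2 (−0.131), both below the fold cutoff. Of the 4 epithelial markers in the table, Krt8 rose in both sets (log2FC 1.70 and 1.17), Krt19 had log2FC of −0.267 and 0.012, and Cdh1 and Epcam lay between −0.044 and 0.012 in both. The summed level of the list was 8.18 to 8.25 against 8.63 to 8.81 with MYC and 7.76 to 7.92 against 8.77 to 9.11. The 3 blood markers summed to 9.61 to 9.72 against 8.36 to 8.50 with MYC and 8.47 to 8.56 against 7.93 to 8.11, with log2FC of −2.09 and −1.13 for Cd3e, 0.351 and 0.272 for Cd68, and −0.154 and −0.041 for Ptprc. None of the 3 endothelial markers (Cdh5, Kdr and Pecam1) was past the cutoffs with MYC, with log2FC from −0.542 to 0.199. With siAHR-5, Cdh5 (log2FC 0.149) and Pecam1 (0.26) were higher, below the fold cutoff, and Kdr was at 0.0. The muscle marker Des fell in both sets (log2FC −1.29 and −1.14). What part these shifts have in the results below was not tested. In such bulk libraries, fewer cells of one kind and less RNA per cell cannot be told apart.

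Each comparison was made with limma across all genes, and a gene was past the cutoffs when it differed by at least 1.5-fold (a log2FC of 0.585 in size) with an adjusted p of at most 0.01. With MYC, Amd1 and Sms rose in both sets, Odc1 rose in the 12-library set, and Sat1 rose in the 6-library set. None of the 10 genes fell past the cutoffs in either set. In the 6-library set, 3 of the 10 genes rose past the cutoffs (Amd1, Sms and Sat1), where 26.8% of all genes were past them and 12.5% rose. In the 12-library set, 3 of 10 rose (Odc1, Amd1 and Sms), where 25.5% of all genes were past the cutoffs and 10.8% rose. The share of the members past the cutoffs was thus near that of all genes, while those that passed were all higher. The log2FC of 9 of the 10 genes, all but Oaz2, had the same sign in both sets, where that of 76.4% of all genes did. Among the 9 are Smox, Srm and Oaz1, with an adjusted p above 0.05 by limma in at least one set.

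**Figure D1:**
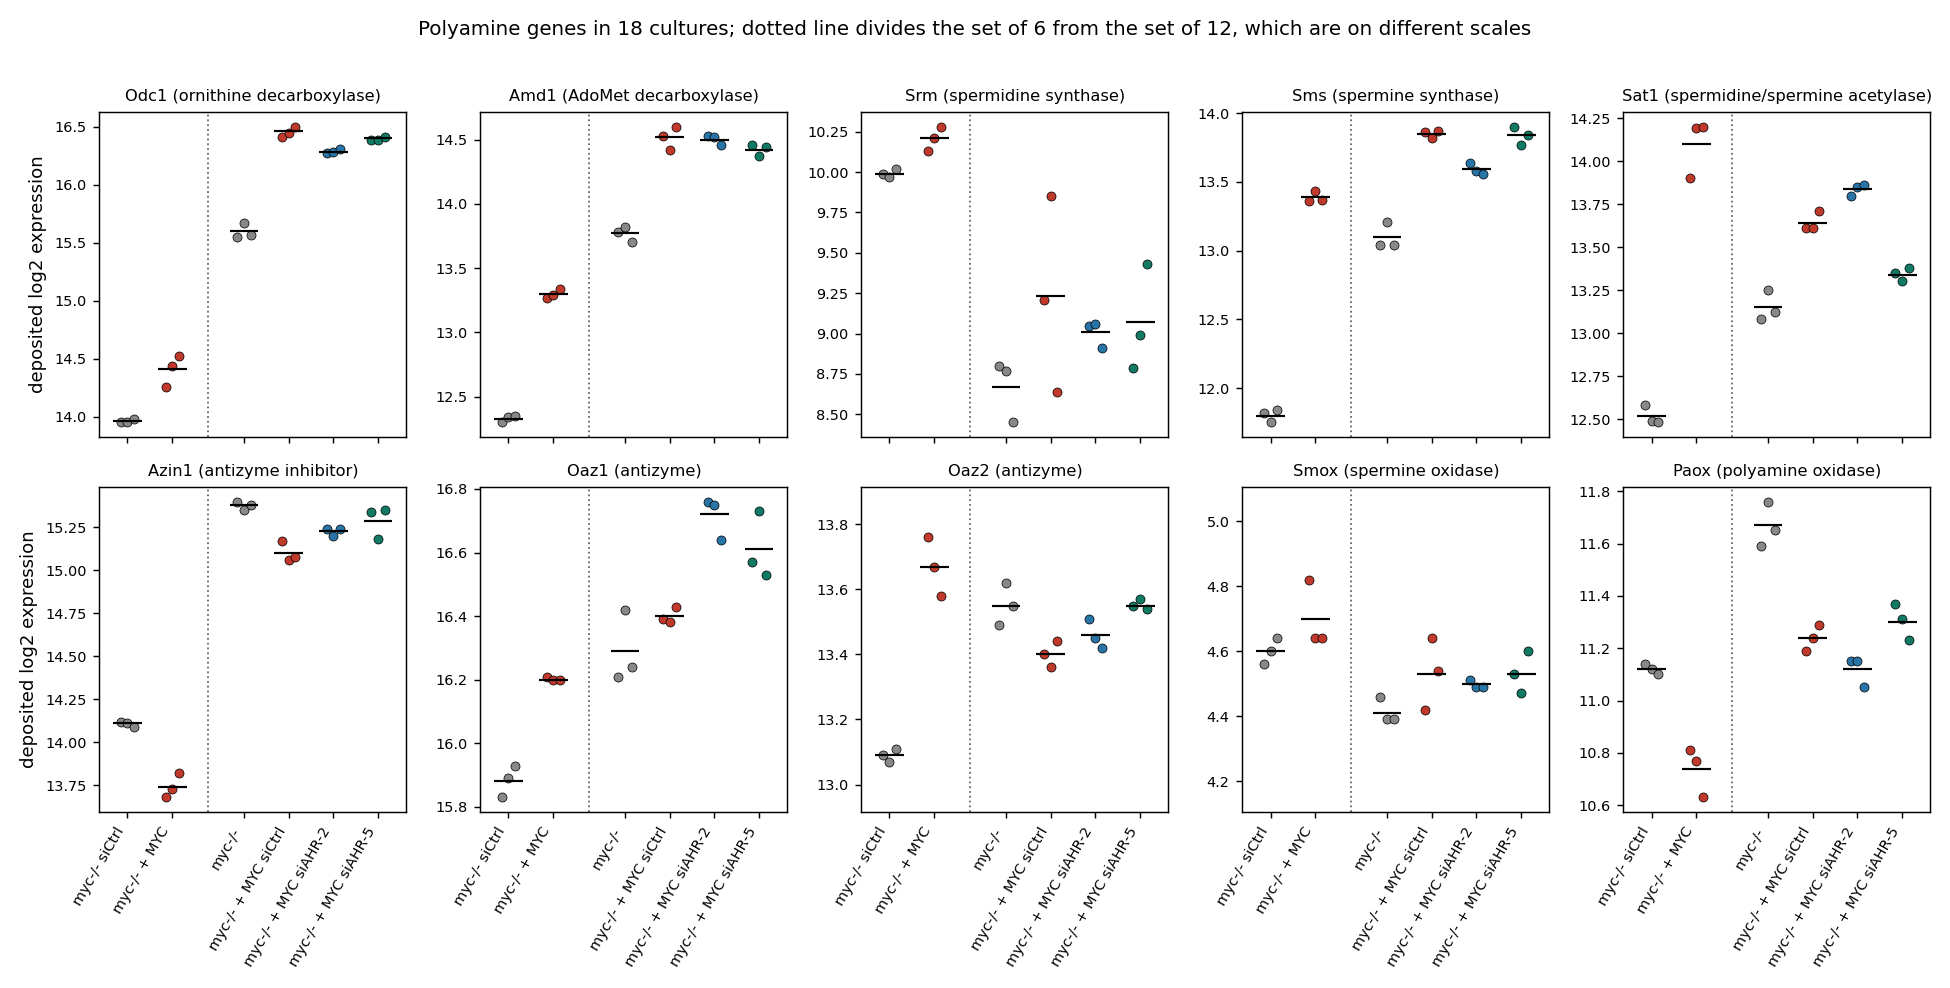
Deposited log2 expression (y axis, a separate range in each panel) of the 10 polyamine genes in each of the 18 cultures, by group. Points are cultures, bars are means of 3, and a dotted line divides the 6-library set from the 12-library set. Odc1 lies between 16.41 and 16.50 in the 3 myc-/- + MYC siCtrl cultures and between 15.55 and 15.67 in the 3 myc-/- cultures, whereas the 3 Srm values of the siCtrl group are spread from 8.64 to 9.85.

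Odc1, the enzyme that commits ornithine to the pathway, was at 13.95, 13.95 and 13.98 in the 3 myc-/- siCtrl cultures and at 14.26, 14.44 and 14.52 in the 3 myc-/- + MYC cultures. The groups did not overlap, and the log2FC was 0.45 (1.36-fold, with a standard error, SE, of 0.0545, adjusted p = 1.53e-05 by limma), below the fold cutoff. After quantile normalization it was 0.66, which is past it. The 12-library set had Odc1 at 15.55, 15.67 and 15.57 in myc-/- cells and at 16.41, 16.45 and 16.50 in myc-/- + MYC siCtrl cells. All cultures with MYC were above all without it, and Odc1 rose 1.81-fold (log2FC 0.86, SE 0.0450, adjusted p = 1.63e-05 by limma).

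Amd1, whose product decarboxylates S-adenosylmethionine, was at 12.30, 12.34 and 12.35 in myc-/- siCtrl cells and at 13.27, 13.29 and 13.34 in myc-/- + MYC cells. It rose 1.96-fold (log2FC 0.97, SE 0.0319, adjusted p = 2.27e-10 by limma). For the 12-library set the values were 13.78, 13.82 and 13.70 without MYC and 14.53, 14.42 and 14.60 with it, a rise of 1.68-fold (log2FC 0.75, SE 0.0562, adjusted p = 7.29e-05 by limma). The groups with and without MYC did not overlap in either set.

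Sms, which converts spermidine to spermine, had, with Sat1 close to it, the largest fold among the members in the 6-library set. It was at 11.82, 11.75 and 11.84 in myc-/- siCtrl cells and at 13.36, 13.43 and 13.37 in myc-/- + MYC cells, a rise of 3.0-fold (log2FC 1.59, SE 0.0357, adjusted p = 1.20e-11 by limma). Its 12-library values were 13.04, 13.21 and 13.04 without MYC and 13.86, 13.82 and 13.87 with it. This rise was smaller, 1.68-fold (log2FC 0.75, SE 0.0545, adjusted p = 6.32e-05 by limma).

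Srm, the enzyme between Odc1 and Sms in the pathway, was not past the cutoffs in either set. In the 6-library set it was at 9.99, 9.97 and 10.02 without MYC and at 10.13, 10.21 and 10.28 with it, a log2FC of 0.21 (adjusted p = 0.00349 by limma) without overlap between the groups. Among the 12 libraries it was at 8.80, 8.77 and 8.45 in myc-/- cells and at 9.21, 9.85 and 8.64 in myc-/- + MYC siCtrl cells. The groups overlapped there, and the log2FC of 0.56 had an SE of 0.308 (adjusted p = 0.162 by limma). The SD of Srm over the 3 siCtrl cultures was 0.606, larger than that of 99.8% of the 495 genes of similar level (within 0.5 on the log2 scale), whose median SD was 0.0887. When single libraries were left out, the log2FC of Srm in this set ranged between 0.25 (without siCtrl replicate 2) and 0.85 (without siCtrl replicate 3), so that no firm size can be given.

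Beside the synthesis enzymes, the windows upstream of their start sites were read for the E-box CACGTG, to which MYC with MAX binds, and for GCGTG on either strand, the core of the site for AHR with ARNT. RefSeq upstream windows (assembly GRCr8) matched 9 of the 10 genes, all but Azin1. In the 250 bases before the start, CACGTG was found in 2 of the 9 (Srm and Oaz1), compared with 5.59% of 33469 windows of the same length over all promoters. GCGTG was found in 6 of the 9 (Odc1, Amd1, Srm, Sms, Oaz1 and Paox), compared with 25.9% of all promoters. The promoters compared were not matched to the members for base composition or expression, so these shares do not show an excess of either motif. The windows of the 3 synthesis genes that rose in the 12-library set are shown with the 2 that hold an E-box. They are written 5′ to 3′ towards the start site, with the matches to CACGTG and to GCGTG (or CACGC, its complement on the other strand) in capitals.
Odc1 upstream window: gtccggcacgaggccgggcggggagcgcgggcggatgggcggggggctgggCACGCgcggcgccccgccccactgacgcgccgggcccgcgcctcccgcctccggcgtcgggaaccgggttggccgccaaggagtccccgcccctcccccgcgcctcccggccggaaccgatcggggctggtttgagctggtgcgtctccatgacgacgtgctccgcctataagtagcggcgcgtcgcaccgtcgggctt
Amd1 upstream window: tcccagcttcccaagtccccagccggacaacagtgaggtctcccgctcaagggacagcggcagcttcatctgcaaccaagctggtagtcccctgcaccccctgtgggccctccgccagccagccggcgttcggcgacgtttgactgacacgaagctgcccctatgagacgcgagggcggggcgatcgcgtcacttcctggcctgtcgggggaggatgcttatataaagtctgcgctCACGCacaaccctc
Sms upstream window: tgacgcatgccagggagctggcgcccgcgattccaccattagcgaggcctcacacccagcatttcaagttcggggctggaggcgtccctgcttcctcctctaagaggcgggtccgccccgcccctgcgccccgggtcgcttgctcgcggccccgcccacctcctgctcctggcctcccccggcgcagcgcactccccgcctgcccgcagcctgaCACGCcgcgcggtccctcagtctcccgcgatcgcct
Srm upstream window: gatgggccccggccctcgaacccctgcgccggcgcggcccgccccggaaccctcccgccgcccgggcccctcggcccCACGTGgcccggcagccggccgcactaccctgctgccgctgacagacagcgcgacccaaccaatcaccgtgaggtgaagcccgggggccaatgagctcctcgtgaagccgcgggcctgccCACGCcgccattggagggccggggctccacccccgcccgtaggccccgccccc
Oaz1 upstream window: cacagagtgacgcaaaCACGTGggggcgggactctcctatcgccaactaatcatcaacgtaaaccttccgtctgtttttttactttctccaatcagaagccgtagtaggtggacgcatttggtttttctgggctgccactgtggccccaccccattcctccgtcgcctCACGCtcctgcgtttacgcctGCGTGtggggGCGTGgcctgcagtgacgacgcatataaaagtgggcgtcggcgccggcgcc

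These windows lie at chr6:46058415-46058664 (plus strand) for Odc1, chr20:45265983-45266232 (minus strand) for Amd1, chrX:41331753-41332002 (plus strand) for Sms, chr5:164308752-164309001 (plus strand) for Srm and chr7:9536991-9537240 (minus strand) for Oaz1, in GRCr8. RefSeq also has transcripts of Odc1, Amd1 and Sms that start further upstream, so the start used is one of several. The E-box begins 173 bases before the start of Srm and 234 bases before that of Oaz1. Single GCGTG matches begin 199 bases before the start of Odc1, 14 before that of Amd1, 36 before that of Sms and 53 before that of Srm, and Oaz1 has 3, at 82, 61 and 51 bases. In none of these windows did a match to one motif overlap a match to the other. A match is a description of the sequence, and the first intron of Odc1 lies outside its window.

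**Figure D2:**
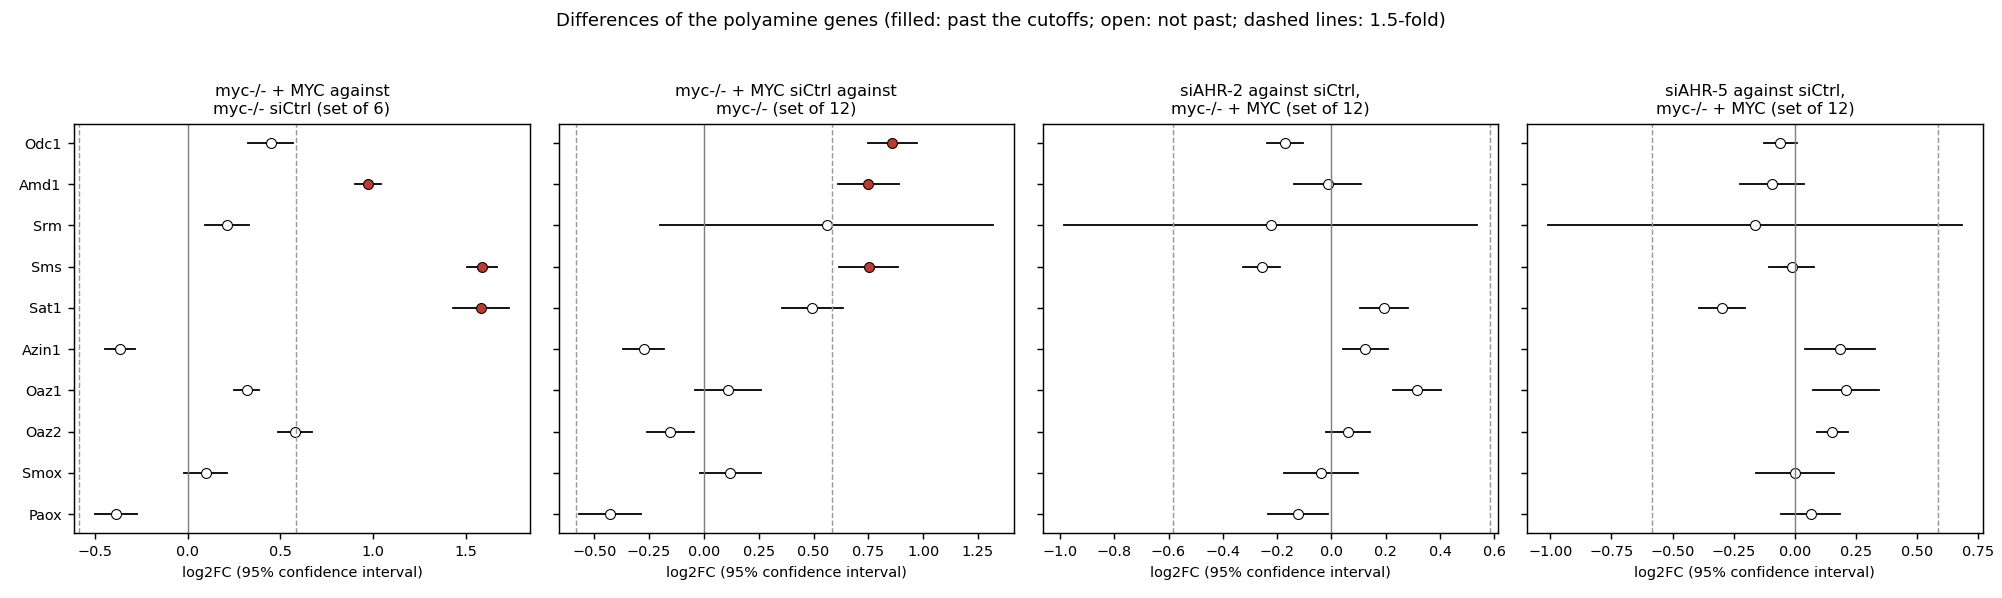
Differences (x axis, log2FC with its 95% confidence interval, a separate range in each panel) of the 10 polyamine genes with MYC in each set and with each siRNA against AHR, 3 cultures against 3. Filled points are past the cutoffs and dashed lines mark 1.5-fold. With MYC, 3 genes are filled in each set, and with siAHR-2 and siAHR-5 the filled points number 0.

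The 3 genes that regulate Odc1 protein did not move together. Azin1, the inhibitor of the antizymes, was lower with MYC in both sets, below the fold cutoff. It was at 14.12, 14.11 and 14.09 without MYC and at 13.68, 13.73 and 13.82 with it in the 6-library set (log2FC −0.36, SE 0.0365, adjusted p = 3.15e-06 by limma), and at 15.40, 15.35 and 15.38 against 15.17, 15.06 and 15.08 in the 12-library set (log2FC −0.28, SE 0.0373, adjusted p = 9.89e-04 by limma). The groups did not overlap in either set. After quantile normalization these differences shrank to −0.16 (adjusted p = 0.00169 by limma) and −0.08 (adjusted p = 0.0991 by limma). Oaz1 was at 15.83, 15.89 and 15.93 without MYC and at 16.21, 16.20 and 16.20 with it in the 6-library set, a log2FC of 0.32 (adjusted p = 2.52e-06 by limma) below the fold cutoff. Its values in the 12-library set were 16.21, 16.42 and 16.24 against 16.39, 16.38 and 16.43, where the groups overlapped (log2FC 0.11, adjusted p = 0.166 by limma, and 0.26 with adjusted p = 0.00325 after quantile normalization).

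Oaz2, the second antizyme, took opposite signs in the 2 sets. In the 6-library set it was at 13.09, 13.07 and 13.11 without MYC and at 13.76, 13.67 and 13.58 with it. This log2FC of 0.58 (1.49-fold, SE 0.0417, adjusted p = 1.72e-07 by limma) was just below the fold cutoff, and past it after quantile normalization (0.71) or without replicate 3 of myc-/- siCtrl (0.59) or of myc-/- + MYC (0.62). Oaz2 in the 12-library set was at 13.49, 13.62 and 13.55 without MYC and at 13.40, 13.36 and 13.44 with it, a log2FC of −0.15 (SE 0.0432, adjusted p = 0.0214 by limma) below the fold cutoff. It was −0.09 after quantile normalization and −0.11 after median centring (adjusted p = 0.145 and 0.076 by limma). The groups did not overlap in either set.

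On the catabolic side, Sat1 rose in the 6-library set while the oxidases did not. Sat1, which acetylates spermidine and spermine so that they can be exported or oxidized, was at 12.58, 12.49 and 12.48 in myc-/- siCtrl cells and at 13.90, 14.19 and 14.20 in myc-/- + MYC cells. All cultures with MYC were above all without it, a rise of 2.99-fold (log2FC 1.58, SE 0.0680, adjusted p = 2.06e-09 by limma). The 12-library set had Sat1 at 13.08, 13.25 and 13.12 without MYC and at 13.61, 13.61 and 13.71 with it. That difference was 1.41-fold (log2FC 0.49, SE 0.0563, adjusted p = 4.58e-04 by limma), below the fold cutoff.

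Paox, the oxidase of acetylated polyamines, was lower with MYC in both sets, below the fold cutoff. Its values were 11.14, 11.12 and 11.10 against 10.81, 10.77 and 10.63 with MYC in the 6-library set (log2FC −0.39, SE 0.0512, adjusted p = 3.27e-05 by limma). In the 12-library set they were 11.59, 11.76 and 11.65 against 11.19, 11.24 and 11.29 (log2FC −0.43, SE 0.0571, adjusted p = 9.25e-04 by limma). The groups did not overlap in either set. Smox, the spermine oxidase, was low throughout, between 4.39 and 4.82 in all 18 libraries. Its log2FC with MYC was 0.10 (95% confidence interval −0.02 to 0.21, adjusted p = 0.11 by limma) in the 6-library set and 0.12 (−0.02 to 0.26, adjusted p = 0.111 by limma) in the 12-library set. The latter was 0.15 after quantile normalization (adjusted p = 0.0356 by limma) and 0.16 after median centring (adjusted p = 0.0185 by limma).

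With limma and an adjusted p below 0.05 alone, 9 members differed in the 6-library set, where 76.2% of all genes did. Of these, 7 were higher (37.3% of all genes) and 2 lower (39% of all genes). For the 12-library set the number was 7, where 64.7% of all genes differed, with 4 higher (31.6% of all genes) and 3 lower (33.1% of all genes). The groups with and without MYC did not overlap for 9 members in the 6-library set (78.8% of all genes) and for 7 in the 12-library set (70.5% of all genes). The median log2FC of the members was 0.38 and 0.31, where that of all genes was −0.004 and 0.

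The MYC differences of the sets were compared as that of the 12-library set minus that of the 6-library set. One limma fit held 12 libraries, those of the 6-library set and the myc-/- and myc-/- + MYC siCtrl groups of the other set. This fit gives each gene one variance over both sets, although their scales differ. Of the 10 members, 3 differed past the cutoffs, where 16.5% of all genes did, and 6 had an adjusted p below 0.05, where 54.9% of all genes did. All 3 past the cutoffs had the lower log2FC in the 12-library set (9.67% of all genes): Sms by −0.83 (SE 0.0673, adjusted p = 7.66e-08 by limma), Sat1 by −1.09 (SE 0.0987, adjusted p = 2.78e-07 by limma) and Oaz2 by −0.73 (SE 0.0664, adjusted p = 2.78e-07 by limma). Odc1 went the other way, with a log2FC larger by 0.41 in the 12-library set (SE 0.0792, adjusted p = 4.65e-04 by limma), below the fold cutoff. Amd1 differed by −0.22 (adjusted p = 0.0105 by limma, and −0.13 after median centring, adjusted p = 0.104) and Oaz1 by −0.21 (adjusted p = 0.0191 by limma, and −0.13 after quantile normalization, adjusted p = 0.117). The intervals of the other 4 members held 0: Azin1 differed by 0.09 (95% confidence interval −0.04 to 0.21), Srm by 0.35 (−0.27 to 0.96, with 0.04 to 0.64 when single libraries were left out), Smox by 0.02 (−0.15 to 0.20) and Paox by −0.04 (−0.22 to 0.13), with limma adjusted p of 0.226, 0.328, 0.822 and 0.688. After median centring the difference of Azin1 was 0.17 (adjusted p = 0.0225 by limma). The sets are on different scales and carry the control siRNA, as labelled, on opposite arms, and the part of either in these differences was not tested.

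**Figure D3:**
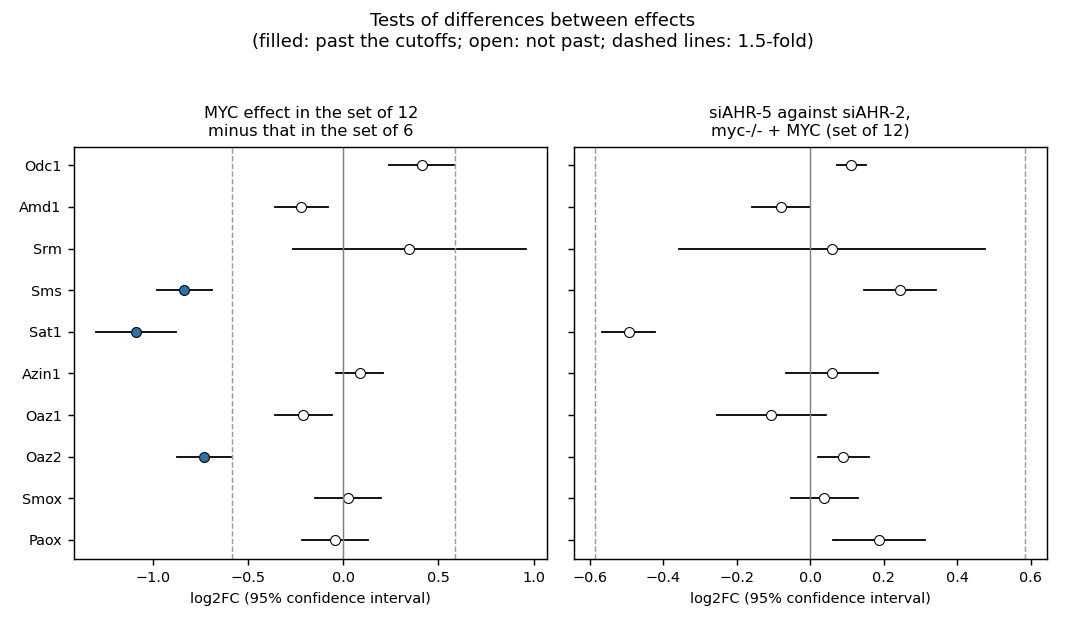
Tests of differences between effects for the 10 polyamine genes (x axis, log2 difference with its 95% confidence interval, a separate range in each panel): the MYC difference of the 12-library set minus that of the 6-library set (left) and siAHR-5 against siAHR-2 in myc-/- + MYC cells (right). Filled points are past the cutoffs. Sms, Sat1 and Oaz2 are filled on the left, and the largest difference on the right is that of Sat1, −0.49.

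The siRNAs against AHR, a ligand-activated transcription factor, were each compared with siCtrl in myc-/- + MYC cells. Both comparisons use the same 3 siCtrl cultures, which are also the MYC group of the 12-library set. No polyamine gene changed past the cutoffs with either siRNA, and the differences seen were all below 1.5-fold. With siAHR-2, 0 of the 10 members were past the cutoffs in limma, where 0.47% of all genes were, and 6 had an unadjusted p below 0.05 (40.4% of all genes). With siAHR-5 the count was also 0, where 2.33% of all genes were past the cutoffs, and 4 had an unadjusted p below 0.05 (47.8% of all genes). At an adjusted p below 0.05 alone, 5 members differed with siAHR-2 (29.3% of all genes), 3 higher (13.7% of all genes) and 2 lower (15.5% of all genes). With siAHR-5 it was 3 members (39.2% of all genes), 2 higher (21.1% of all genes) and 1 lower (18.1% of all genes).

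Among the synthesis enzymes, Odc1 was at 16.27, 16.28 and 16.31 with siAHR-2 and at 16.39, 16.39 and 16.41 with siAHR-5, compared with 16.41 to 16.50 with siCtrl. The siAHR-2 cultures were all below the siCtrl cultures (log2FC −0.17, SE 0.0266, adjusted p = 0.00757 by limma), but after quantile normalization the difference was −0.07 (adjusted p = 0.0864 by limma). With siAHR-5 the log2FC was −0.06 (95% confidence interval −0.13 to 0.01, adjusted p = 0.142 by limma), 0.09 after quantile normalization (adjusted p = 0.0515) and −0.12 after median centring (adjusted p = 0.0115), so its sign depends on the scaling. Sms was at 13.64, 13.58 and 13.56 with siAHR-2, below all siCtrl cultures (log2FC −0.26, SE 0.0274, adjusted p = 0.00254 by limma). With siAHR-5 it was at 13.90, 13.77 and 13.84, a log2FC of −0.01 (95% confidence interval −0.10 to 0.08, adjusted p = 0.841 by limma). Tested directly, siAHR-5 was higher than siAHR-2 by 0.11 for Odc1 (adjusted p = 0.00362 by limma) and by 0.24 for Sms (adjusted p = 0.00542 by limma).

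Amd1 ranged from 14.46 to 14.53 in siAHR-2 cultures and from 14.37 to 14.46 in siAHR-5 cultures. Both groups overlapped the siCtrl cultures, at 14.42 to 14.60. Its log2FC was −0.01 (95% confidence interval −0.14 to 0.11) and −0.09 (−0.22 to 0.04), with limma adjusted p of 0.893 and 0.218 (the latter −0.15, adjusted p = 0.0276, after median centring). Srm had intervals too wide to read, −0.99 to 0.54 with siAHR-2 and −1.01 to 0.68 with siAHR-5. The sign of the Srm log2FC turned for both siRNAs when siCtrl replicate 2 was left out, from −0.22 to 0.09 and from −0.16 to 0.15.

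Sat1 took opposite signs with the 2 siRNAs. It was at 13.80, 13.85 and 13.86 with siAHR-2, above the siCtrl cultures at 13.61, 13.61 and 13.71 (log2FC 0.20, SE 0.0351, adjusted p = 0.0122 by limma). With siAHR-5 it was at 13.35, 13.30 and 13.38, below the siCtrl cultures and above all 3 myc-/- cultures (log2FC against siCtrl −0.30, SE 0.0372, adjusted p = 0.00245 by limma). The siAHR-5 and siAHR-2 groups, compared directly, differed by −0.49 (1.41-fold lower with siAHR-5, SE 0.0287, adjusted p = 2.22e-04 by limma), the largest difference between the siRNAs among the 10 genes, though below the fold cutoff.

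Oaz1 was higher with both siRNAs, at 16.76, 16.75 and 16.64 with siAHR-2 (log2FC 0.31, SE 0.0351, adjusted p = 0.0028 by limma) and at 16.57, 16.73 and 16.53 with siAHR-5 (log2FC 0.21, SE 0.0545, adjusted p = 0.0297 by limma, and 0.37 after quantile normalization). Neither group overlapped siCtrl. The siRNAs differed from each other for Oaz1 by −0.11 (95% confidence interval −0.26 to 0.04, adjusted p = 0.232 by limma). Oaz2 was at 13.55, 13.57 and 13.54 with siAHR-5 (log2FC 0.15, SE 0.0248, adjusted p = 0.00602 by limma, and 0.09 after median centring), a level that lies within the myc-/- cultures, and at 13.51, 13.45 and 13.42 with siAHR-2 (log2FC 0.06, adjusted p = 0.216 by limma). Azin1 was 0.13 higher with siAHR-2 (adjusted p = 0.0391 by limma) and 0.19 higher with siAHR-5 (adjusted p = 0.0502 by limma). After quantile normalization these differences were 0.19 and 0.23 (adjusted p = 0.00204 and 0.00568 by limma). After median centring they were 0.09 and 0.13 (adjusted p = 0.0482 and 0.0694 by limma).

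Paox was at 11.15, 11.15 and 11.05 with siAHR-2 (log2FC −0.12, adjusted p = 0.0963 by limma, and −0.17 with adjusted p = 0.0289 after quantile normalization) and at 11.37, 11.31 and 11.23 with siAHR-5 (log2FC 0.06, adjusted p = 0.351 by limma), and the siRNAs differed directly by 0.19 (adjusted p = 0.0317 by limma). Smox differed by −0.04 (95% confidence interval −0.17 to 0.10) and 0.00 (−0.16 to 0.16). Between the siRNAs, 0 of the 10 members were past the cutoffs (2.18% of all genes), and 5 had an adjusted p below 0.05 in limma (39.1% of all genes), and the same number an unadjusted p below 0.05 (46.8% of all genes). The genes by adjusted p were Odc1, Sms, Sat1, Oaz2 and Paox. That of Oaz2 (0.09, adjusted p = 0.0474 by limma) was lost after quantile normalization (adjusted p = 0.0524) and median centring (adjusted p = 0.131). Of the others, Amd1 differed by −0.08 (95% confidence interval −0.16 to 0.00, and adjusted p = 0.0291 after quantile normalization and 0.0284 after median centring), Azin1 by 0.06 (−0.07 to 0.19), Srm by 0.06 (−0.36 to 0.48) and Smox by 0.04 (−0.05 to 0.13).

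The genes that feed, use and transport polyamines were described from lists of 42 symbols, of which 38 were in the table. Aoc1, Slc18b1, Slc47a1 and Oaz3 were not analysed here. With MYC, 11 of the 38 were past the cutoffs in the 6-library set, 3 higher and 8 lower, and 10 in the 12-library set, 2 higher and 8 lower (26.8% and 25.5% of all genes, as for the members). Of all 13188 genes, 1653 were higher and 1885 lower in the 6-library set, and 1425 and 1936 in the 12-library set. With siAHR-2 the count was 0 (0.47% of all genes), with 10 at an unadjusted p below 0.05 in limma (40.4% of all genes). With siAHR-5 it was 3, 2 higher and 1 lower (2.33% of all genes). The median log2FC of the 38 was −0.07 in the 6-library set and −0.02 in the 12-library set.

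Among 9 genes of arginine and ornithine metabolism, 3 were past the cutoffs with MYC in the 6-library set and 2 in the 12-library set. The shares of all genes past them were 26.8% and 25.5%. Asl, argininosuccinate lyase, which makes arginine, rose in both sets (log2FC 1.14 and 0.71). Oat, which turns ornithine into glutamate semialdehyde and so draws on the substrate of Odc1, fell in both. Its 3 myc-/- siCtrl cultures were all at 15.21 and the myc-/- + MYC cultures at 14.56, 14.61 and 14.59 (log2FC −0.62, SE 0.0265, adjusted p = 2.00e-09 by limma), and the log2FC was −0.78 in the 12-library set (adjusted p = 1.13e-05 by limma). After quantile normalization the difference in the 6-library set was −0.38, below the fold cutoff. Oat was also the one gene of these lists that differed past the cutoffs between the siRNAs: it was at 15.07, 15.09 and 15.11 with siCtrl, at 15.08, 15.06 and 15.11 with siAHR-2 and at 14.32, 14.28 and 14.22 with siAHR-5. The siAHR-2 cultures overlapped siCtrl, and the siAHR-5 cultures were below both (log2FC −0.82 against siCtrl, adjusted p = 1.81e-04 by limma, and −0.81 against siAHR-2, adjusted p = 6.52e-05 by limma). Aldh18a1, which makes glutamate semialdehyde from glutamate, fell in the 6-library set (log2FC −0.60) and was at −0.50 in the 12-library set, below the fold cutoff. Its call in the 6-library set was lost when any of 3 single libraries was left out (myc-/- siCtrl replicate 3, −0.58, and myc-/- + MYC replicates 1 and 2, −0.58 and −0.57).

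The methionine cycle and salvage genes supply S-adenosylmethionine for Amd1 and recover methionine from the byproduct of Srm and Sms. Of 11 genes, 2 were past the cutoffs with MYC in the 6-library set (26.8% of all genes) and 4 in the 12-library set (25.5% of all genes). Mat2b, the regulatory subunit of methionine adenosyltransferase, fell in both (log2FC −0.66 and −1.55), though by 0.48 in the 6-library set after quantile normalization, below the fold cutoff. Mat1a, the catalytic subunit typical of liver, rose in the 6-library set (log2FC 1.27) and had a log2FC of 0.48 in the 12-library set. Of the salvage enzymes, Adi1 rose in the 12-library set (log2FC 0.76), and Apip (−0.79) and Enoph1 (−0.73) fell there. In the 6-library set these had log2FC of 0.36, −0.40 and −0.29, below the fold cutoff. With siAHR-5, Mat1a rose by 0.60 (adjusted p = 0.00163 by limma), a call lost without replicate 3 of siCtrl (0.54) or of siAHR-5 (0.58), after quantile normalization (0.50) or median centring (0.54), and with the replicate block (adjusted p = 0.012).

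**Figure D4:**
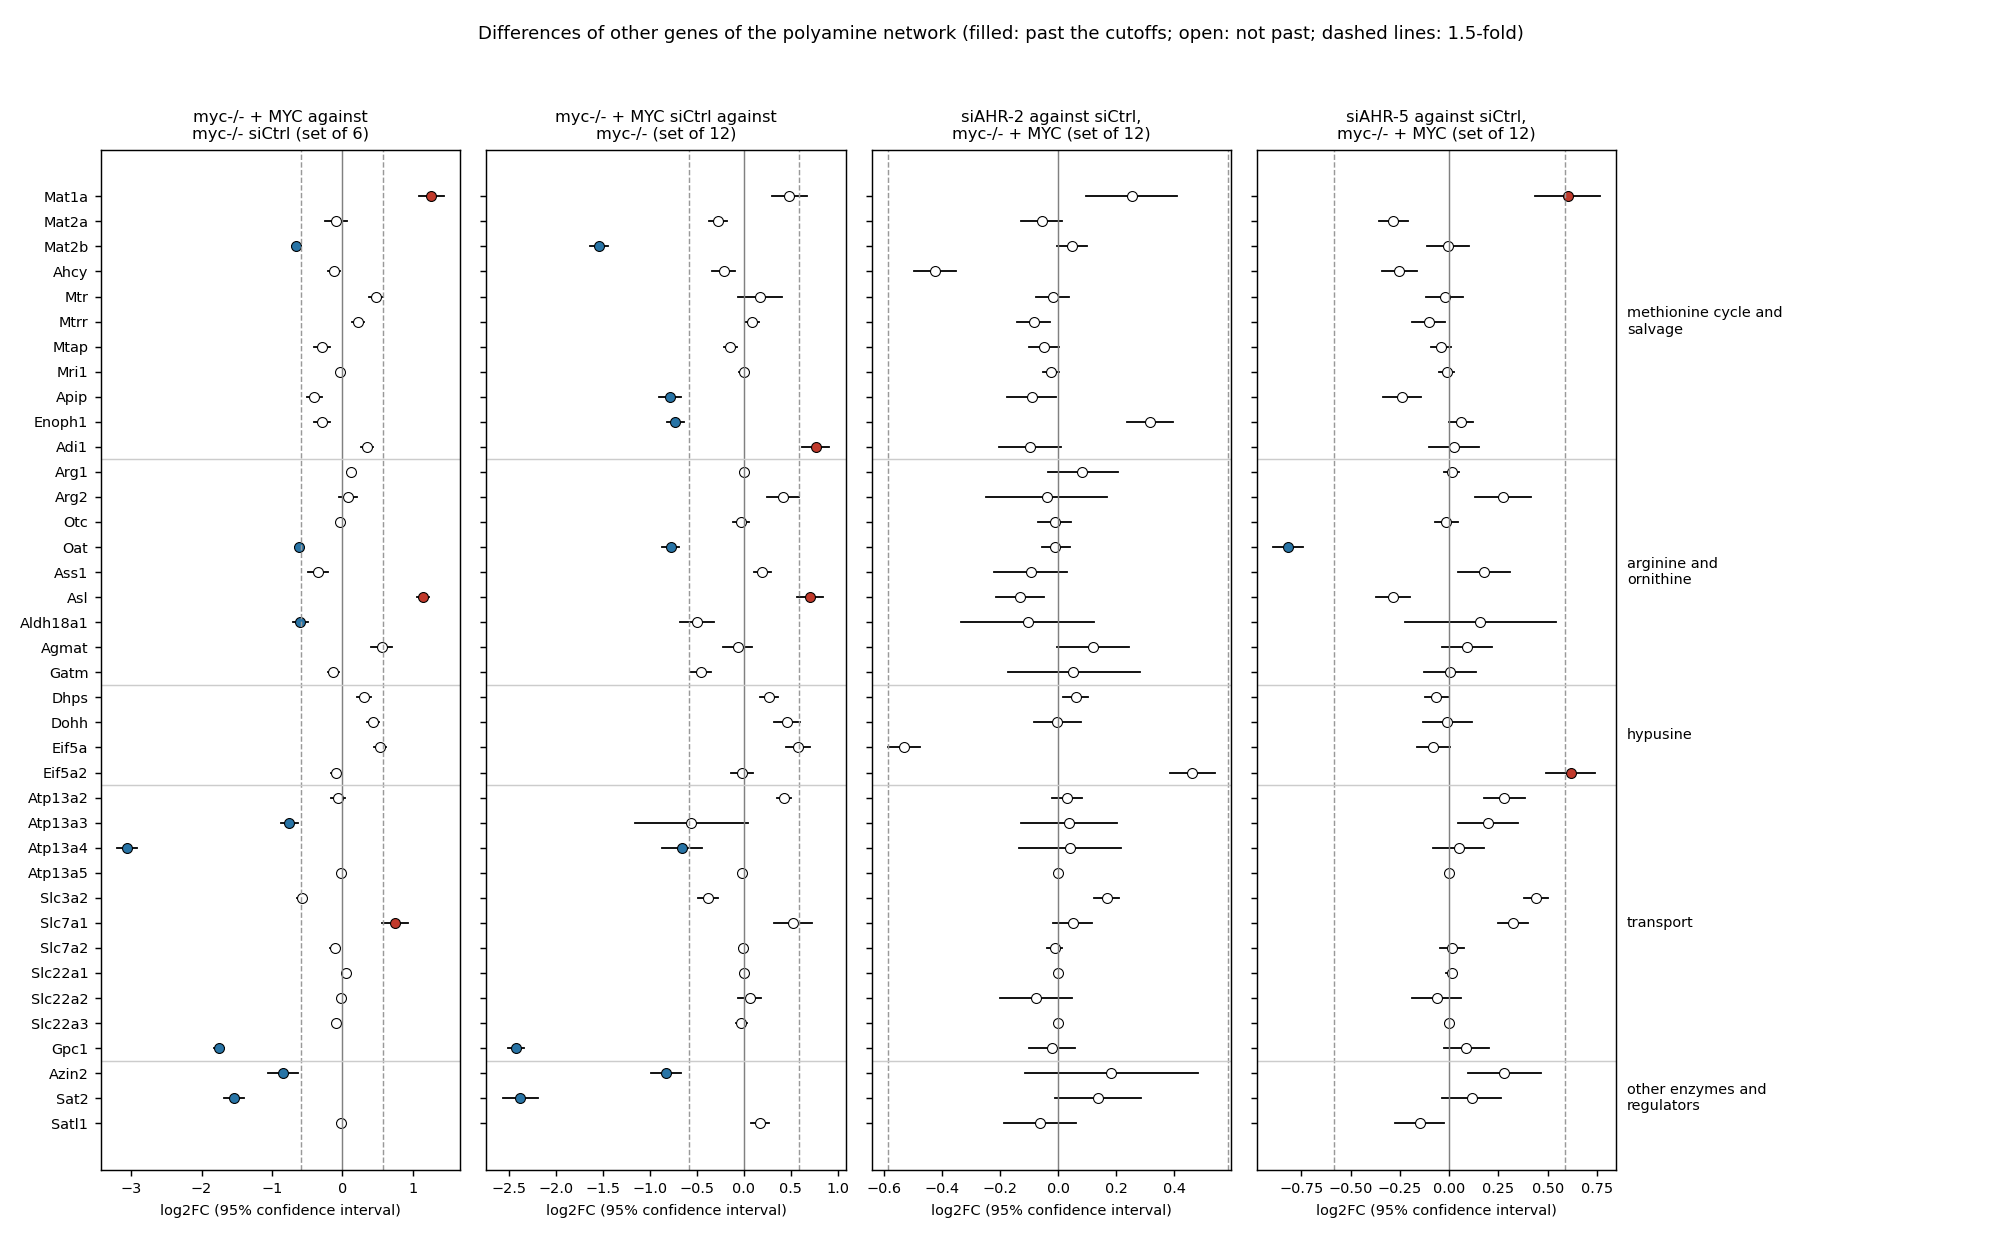
Differences (x axis, log2FC with its 95% confidence interval, a separate range in each panel) of 38 other genes of the polyamine network, by list, in the same 4 comparisons of 3 cultures with 3. Filled points are past the cutoffs and dashed lines mark 1.5-fold. Gpc1, Sat2 and Azin2 are filled on the lower side in both MYC panels, and Oat is filled on the lower side with siAHR-5 and open near 0 with siAHR-2.

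Spermidine is also the donor for hypusine, the modified residue of the translation factor eIF5A that Dhps and Dohh make. None of these 4 genes passed the cutoffs with MYC in limma on the values as deposited. In the 6-library set all 4 had an unadjusted p below 0.05 (77.5% of all genes) and in the 12-library set 3 did (67.3% of all genes). Eif5a, at 16.70, 16.71 and 16.76 without MYC and 17.17, 17.29 and 17.31 with it in the 6-library set, had log2FC of 0.53 and 0.58 in the 2 sets, just below the fold cutoff, with no overlap between groups. In the 12-library set it was past the cutoffs after quantile normalization (0.78), after median centring (0.62) and without myc-/- replicate 2 (0.62). Dohh (0.43 and 0.46) and Dhps (0.31 and 0.27) were also higher below the fold cutoff. Eif5a2, the paralog of Eif5a, was lower in the 6-library set by little (log2FC −0.09, adjusted p = 0.049 by limma) and overlapped in the 12-library set (−0.02, adjusted p = 0.773 by limma). With siAHR-2, Eif5a was at 17.48, 17.51 and 17.46, below all siCtrl cultures (mean 18.02 ± 0.0289, SD, n = 3), a log2FC of −0.53 that missed the fold cutoff. With siAHR-5 it had a mean of 17.94 ± 0.0524 (SD, n = 3). Eif5a2 rose with siAHR-5 (log2FC 0.62, adjusted p = 6.97e-04 by limma), a call lost after median centring (0.56) or without replicate 3 of siAHR-5 (0.58). With siAHR-2 it was also above all siCtrl cultures, below the fold cutoff (log2FC 0.46, adjusted p = 7.43e-04 by limma), and the siRNAs differed directly by 0.15 (adjusted p = 0.0338 by limma).

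Of 11 transport genes in the table, 4 were past the cutoffs with MYC in the 6-library set and 2 in the 12-library set. Among all genes the shares were 26.8% and 25.5%. Gpc1, a heparan sulfate proteoglycan that has been tied to polyamine uptake, fell from 16.46, 16.54 and 16.55 to 14.82, 14.73 and 14.74 in the 6-library set (log2FC −1.75) and from 17.52, 17.52 and 17.53 to 15.11, 15.13 and 15.04 in the 12-library set (log2FC −2.43). Atp13a4, a P-type ATPase of a family that includes polyamine transporters, fell by 3.06 in the 6-library set, from 10.27, 10.28 and 10.29 to 7.22, 7.12 and 7.33, and by 0.66 in the 12-library set. The latter was −0.47 after quantile normalization and −0.58 without myc-/- replicate 1, both below the fold cutoff. Atp13a3 fell by 0.75 in the 6-library set. In the 12-library set it had a log2FC of −0.56 (adjusted p = 0.0905 by limma), and −0.84 past the cutoffs without myc-/- replicate 2. Slc7a1, the arginine and ornithine carrier, rose in the 6-library set (log2FC 0.75) and had a log2FC of 0.52 in the 12-library set, below the fold cutoff, or 0.69 after quantile normalization, past it.

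Of the 3 remaining enzymes and regulators in the table, 2 fell past the cutoffs in both sets. Over all genes, 26.8% and 25.5% were past them in either direction, and 1885 and 1936 of 13188 genes were lower. The share of all genes lower past them in both sets is not given here. Sat2, related in sequence to Sat1, was at 10.11, 10.08 and 10.04 without MYC and at 8.54, 8.43 and 8.63 with it in the 6-library set (log2FC −1.54, adjusted p = 1.27e-09 by limma), and at 9.93, 10.13 and 9.99 against 7.64, 7.54 and 7.72 in the 12-library set (log2FC −2.38, adjusted p = 2.61e-06 by limma). Sat2 was thus lower in both sets, whereas Sat1 was higher in both. Azin2, an antizyme inhibitor like Azin1, had log2FC of −0.84 (adjusted p = 9.31e-06 by limma) and −0.83 (adjusted p = 8.73e-05 by limma).

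The pattern of Odc1 over the 18 libraries, after the mean of each set was taken off, was compared with that of every gene whose mean reached 1 on the log2 scale in both sets (12579 genes). The most similar were Snrpa1 (Pearson's r 0.984), Ccdc58 (0.983) and Polr1c (0.983). Of the other members, Amd1 had an r of 0.895 and ranked 956. Sms had 0.786, Oaz1 0.655, Sat1 0.645, Srm 0.568, Smox 0.567, Oaz2 0.218, Azin1 −0.706 and Paox −0.864. Within the sets the values differed from these for some genes: Sms had 0.947 in the 6-library set and 0.975 in the 12-library set, Sat1 had 0.974 and 0.674, and Oaz2 had 0.876 and −0.464. In the same order, Srm had 0.994 and 0.536, Oaz1 had 0.922 and 0.578, and Smox had 0.35 and 0.666. The points share their groups and normalization set, and the difference between cells with and without MYC enters every r, so these values are a description.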

How the data were processed

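RNA was sequenced from 18 cultures of HO15.19 rat fibroblasts in 6 groups of 3. Groups and replicate numbers came from the sample labels, and table columns were matched by the names given there. The authors had poly-A RNA sequenced. They assessed read quality with the NGS-QC-Toolkit and used HISAT2 2.1.0 for alignment to rn6. Genes below 10 reads in total were dropped, and the authors normalized the rest with DESeq2. The counter, the annotation and the transformation are not given in the sources used here. The authors deposited log2 values for 13188 genes, named log CPM. Off the log scale they sum to different totals in each library, unlike CPM. The depth, with the precision it gives, is unknown. The effect of the transformation on fold changes of low genes was not tested.

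The deposited values were fitted as they stand, within a set, by limma 3.58.1 under R 4.3.3. Only the test of the difference between the MYC effects spanned both sets. The functions were lmFit and eBayes, the latter with its trend option on, with only the groups compared in a fit and Benjamini-Hochberg adjustment over all genes. The cutoffs were 1.5-fold and an adjusted p of 0.01. The fits were tested on simulated data. Plots came from matplotlib 3.10.9 (Python 3.11.15). Genes named are the 10 members in every comparison, genes of the other lists past the cutoffs in any comparison, Myc and Ahr as checks of the labels, and the 3 genes most like Odc1. The hypusine genes below the fold cutoff and the cell type markers were named after their values were seen. The members and lists were chosen with earlier results of these data known. Alternatives were the p cutoff alone, one fit per set, no trend, quantile normalization, median centring, the replicate number as a block, a pseudocount of 1, a minimum mean of 1 on the log2 scale, and each library left out. The RefSeq table (GRCr8) lists pseudogenes named after Odc1 (10), Amd1 (3), Sms (2) and Oaz1 (2). How shared reads were counted is not given in the sources used here, so the values of these genes are uncertain to that extent.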

Additional observations from a re-analysis of the deposited data

Results flagged for a closer look

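The MYC difference of 9 genes was not the same in the 12-library set as in the 6-library set, by limma's test of the difference itself (12-library set minus 6-library set, 12 libraries from both sets) at the cutoffs of the report. These are 9 of 48, where 16.5% of all genes were past the same cutoffs, a share near it. Of the members, these were Sms (−0.83), Sat1 (−1.09) and Oaz2 (−0.73). Sms and Sat1 were higher with MYC in both sets, and Oaz2 had log2FC of 0.58 and −0.15. Of the other genes of the network, Mat1a differed by −0.78, Mat2b by −0.89, Agmat by −0.62, Gpc1 by −0.68 and Sat2 by −0.84, and Atp13a4 by 2.39, since it fell by 3.06 in the 6-library set and by 0.66 in the 12-library set. Agmat, agmatinase, had log2FC of 0.56 and −0.07, neither past the cutoffs (the former was 0.61 and past them without myc-/- + MYC replicate 3), and its difference was past the fold cutoff by little: it was −0.54 after median centring and between −0.68 and −0.55 with each library left out. The difference of Sat2 was −0.36 after quantile normalization. The sets are on different scales and carry the control siRNA, as labelled, on opposite arms, and the part of either was not tested.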

How the results depend on the processing

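With an adjusted p below 0.05 and no fold cutoff, the members that differed numbered 9 (MYC, 6-library set), 7 (MYC, 12-library set), 5 (siAHR-2), 3 (siAHR-5), 5 (siAHR-5 against siAHR-2) and 6 (difference of the MYC effects), and the other pathway genes numbered 31, 26, 9, 13, 16 and 21. Over all genes the shares were 76.2%, 64.7%, 29.3%, 39.2%, 39.1% and 54.9%. Quantile normalization gave 5 members for MYC in the 6-library set, Odc1 and Oaz2 being added, where 1799 of all 13188 genes were higher and 1684 lower. Median centring gave 1 other pathway gene for siAHR-5, where 140 of all genes were higher and 165 lower. When single libraries were left out, the members numbered 3 to 4 for MYC in the 6-library set, 3 for MYC in the 12-library set and for the difference, and 0 for the comparisons of the siRNAs, and the other pathway genes numbered 1 to 3 for siAHR-5 (1 without siAHR-5 replicate 3). Among the 60 differences of the members, quantile normalization brought 5 below an adjusted p of 0.05 and took 5 out, and median centring brought in 7 and took out 4. Counts over all genes are not given for these changes or for the fits with a library left out. One fit per set, no trend, the replicate block, a pseudocount and a minimum mean moved none of these counts by over 1.5 times.

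Signs turned only for differences that were not past the cutoffs. After quantile normalization these were Odc1 with siAHR-5 (0.09), Amd1 with siAHR-2 (0.03), Srm between the siRNAs (−0.01), Sms with siAHR-5 (0.00), Smox with siAHR-5 (−0.04), Paox in the difference (0.08), Eif5a with siAHR-5 (0.10) and Eif5a2 with MYC in the 12-library set (0.03). After median centring they were Smox with siAHR-5 (−0.06), Paox in the difference (0.04) and Eif5a2 with MYC in the 12-library set (0.03). The cause was not tested. With libraries left out, the ranges that crossed 0 were those of Amd1 with siAHR-2 (−0.06 to 0.03), Srm with siAHR-2 (−0.52 to 0.09), with siAHR-5 (−0.46 to 0.15) and between the siRNAs (−0.12 to 0.20), Sms with siAHR-5 (−0.04 to 0.02), Smox with siAHR-2 (−0.09 to 0.02), with siAHR-5 (−0.05 to 0.05) and in the difference (−0.03 to 0.08), Paox in the difference (−0.09 to 0.00) and Eif5a2 with MYC in the 12-library set (−0.05 to 0.02).

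Whether same-numbered cultures belong together is not given in the labels. In no comparison did their deviations from the group means correlate positively in every pair. The values were 0.242, −0.0269 and −0.256 for MYC in the 12-library set, and 0.218, 0.139 and −0.065 for siAHR-5. Deviations within a group sum to 0, so these values are tied and cannot tell whether such cultures shared a batch. With the replicate block, the members past the cutoffs numbered 3, 3, 0, 0, 0 and 3, and the other pathway genes 11, 10, 0, 2, 1 and 6, in the order above. Over all genes the block left 1653 higher and 1886 lower for MYC in the 6-library set, and 1399 and 1905 in the 12-library set. For siAHR-5 it left 160 and 111, between the siRNAs 158 and 108, and for the difference 896 and 1275. The block took Mat1a with siAHR-5 past an adjusted p of 0.01 (0.012), and of all 13188 genes it left 0 past the cutoffs for siAHR-2. The fit of all libraries of a set equals the main fit in the 6-library set and was not run there. The depth of the libraries is unknown, so what depth limits, as for Smox, cannot be stated.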
